A study of Oryza sativa with 14 samples.

Results

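Transcripts of 10 loci for chlorophyll breakdown and leaf senescence were followed in leaves of the rice cultivar Koshihikari, out of 37727 loci counted. The loci were taken by identifier: SGR (Os09g0532000), NYC1 (Os01g0227100), NOL (Os03g0654600), NYC3 (Os06g0354700), OsPAO (Os03g0146400), OsRCCR1 (Os10g0389200), OsNAP (Os03g0327800), Osl2 (Os04g0614600), Osl85 (Os07g0529000) and Osh36 (Os05g0475400). All plants were wild type (WT). One set grew with chemical fertilizer (CF), given as a basal dressing of 56 kg N, 176 kg PO4, 56 kg K, 90 kg Mg and 120 kg SiO2 per hectare. The other grew with green manure (GM), which was hairy vetch (Vicia villosa), a legume cover crop, ploughed in with no chemical fertilizer; seedlings of both sets had first stood in a fertilized nursery field. For 2023 the cover crop was seeded at 30 kg per hectare, and 4 leaves per treatment were taken 47 days after transplanting. For 2024 it was seeded at 60 kg per hectare in all, and 3 leaves per treatment were taken 38 days after transplanting. Leaves of vegetative plants were cut between 9 and 10 h, each leaf being 1 biological replicate; the protocol speaks of the largest leaf and the design text of the uppermost fully expanded leaf.

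When a rice leaf ages, its green pigment is taken apart along one route. NYC1 and NOL reduce chlorophyll b towards chlorophyll a, SGR (stay-green) removes the magnesium from chlorophyll a, and NYC3, the rice relative of the Arabidopsis pheophytinase, belongs to the step that cuts off the phytol tail. Pheophorbide a oxygenase (OsPAO) then opens the ring, and red chlorophyll catabolite reductase (OsRCCR1) turns the red product colourless. OsNAP is a NAC transcription factor known in rice to promote leaf senescence and to raise several of these genes. Osl2, Osl85 and Osh36 were found as transcripts of senescing rice leaves, and their products are a 4-aminobutyrate (GABA) aminotransferase, an isocitrate lyase and an aminotransferase.

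Total counts per library ran from 8161851 to 11375515 in 2023 and from 13224671 to 23367369 in 2024. Levels are in CPM, counts normalised for sequencing depth, with 1 TMM scaling over all 14 libraries; they are not divided by transcript length, so levels of different genes cannot be set against each other. Changes are log2 fold changes ± SE from edgeR's quasi-likelihood test, and a gene was called at a Benjamini-Hochberg adjusted p under 0.05 over all genes tested. The labels do not say how many plots were sampled. The tests therefore rest on the spread from leaf to leaf, and treatment and field cannot be told apart. Year, days after transplanting, sequencing depth and, for GM, the amount of vetch seed cannot be told apart either. In these bulk leaves, fewer cells of a type and less RNA per cell cannot be told apart. The summed level of 4 leaf markers (photosynthesis genes) was 9910 to 19900 CPM in CF and 22100 to 47300 CPM in GM leaves of 2023, and 36300 to 43300 CPM in CF and 54100 to 94500 CPM in GM leaves of 2024; its part in the results was not tested. None of these 4 markers was at 0. Of the 2 root markers 1 was at 0 in all libraries. Their sum, which is that of the silicon transporter gene OsLsi1, was 7.98 to 16.8 CPM in CF and 15.6 to 29.4 CPM in GM leaves of 2023, and 19.3 to 24.8 CPM in CF and 26.5 to 34.4 CPM in GM leaves of 2024. OsLsi1 was called higher in GM over both years (0.65 ± 0.15, adjusted p = 0.0136) and in CF leaves of 2024 against 2023 (0.85 ± 0.22, adjusted p = 0.00515), and its part in the results was not tested. The first call was lost without GM libraries 1 and 2 of 2023 (adjusted p = 0.0515) and the second with library totals (adjusted p = 0.0511). Of the 3 meristem markers 1 was at 0, with sums of 6.63 to 9.93 CPM in 2023 and 5.3 to 7.75 CPM in 2024. The marker OsPCNA was called lower in 2024 than in 2023 in CF (-0.62 ± 0.17, adjusted p = 0.00719) and GM leaves (-0.57 ± 0.18, adjusted p = 0.0149). The GM call held in 12 of 14 fits that left out 1 library. The marker OsCDKB2;1 was at 1.35 ± 0.52 for GM against CF over both years and was not called (adjusted p = 0.122).

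Scaling by library totals in place of TMM moved the median change of all genes to -0.18 for GM against CF in 2023, -0.21 in 2024 and -0.20 over both years. It moved the median to -0.49 for CF leaves of 2024 against 2023 and to -0.52 for GM leaves. Among called genes the higher ones made up 65.7%, 58.1% and 61.3% of the calls for GM against CF in 2023, in 2024 and over both years, and 48.8% and 49.4% for the years in CF and in GM. With library totals these shares were 24.4%, 17.1%, 11.1%, 13.3% and 11.1%. All changes below are therefore relative to the bulk of the other genes.

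Only OsRCCR1, the last enzyme of the route, was called between treatments with all libraries under the main test, and only when both years were averaged. Of the 8 loci tested in 2023, none was called higher or lower in GM leaves, where 1.63% of all 18577 genes tested were called higher and 0.851% lower. Of the 9 tested in 2024, none was called either, against 1.89% higher and 1.36% lower among 19261 genes. At an unadjusted p under 0.05 there was 1 of 8 loci in 2023 (OsRCCR1) and 3 of 9 in 2024 (SGR, NYC3 and OsRCCR1), each lower in GM. Of all genes, 2874 of 18577 in 2023 and 3292 of 19261 in 2024 had such a p, in either direction. DESeq2 also called 0 of these loci in both years. Averaged over both years, 1 of 9 was called and was lower in GM, where 5.11% of 19805 genes were called higher and 3.22% lower. The median change over the loci was 0.02 in 2023, -0.17 in 2024 and -0.11 over both years, and that of all genes was within 0.01 of 0. The CF and GM libraries were fully apart for 0 of 8 loci in 2023, against 9.96% of all genes, and for 1 of 9 in 2024, against 22.7%.

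**Figure D1:**
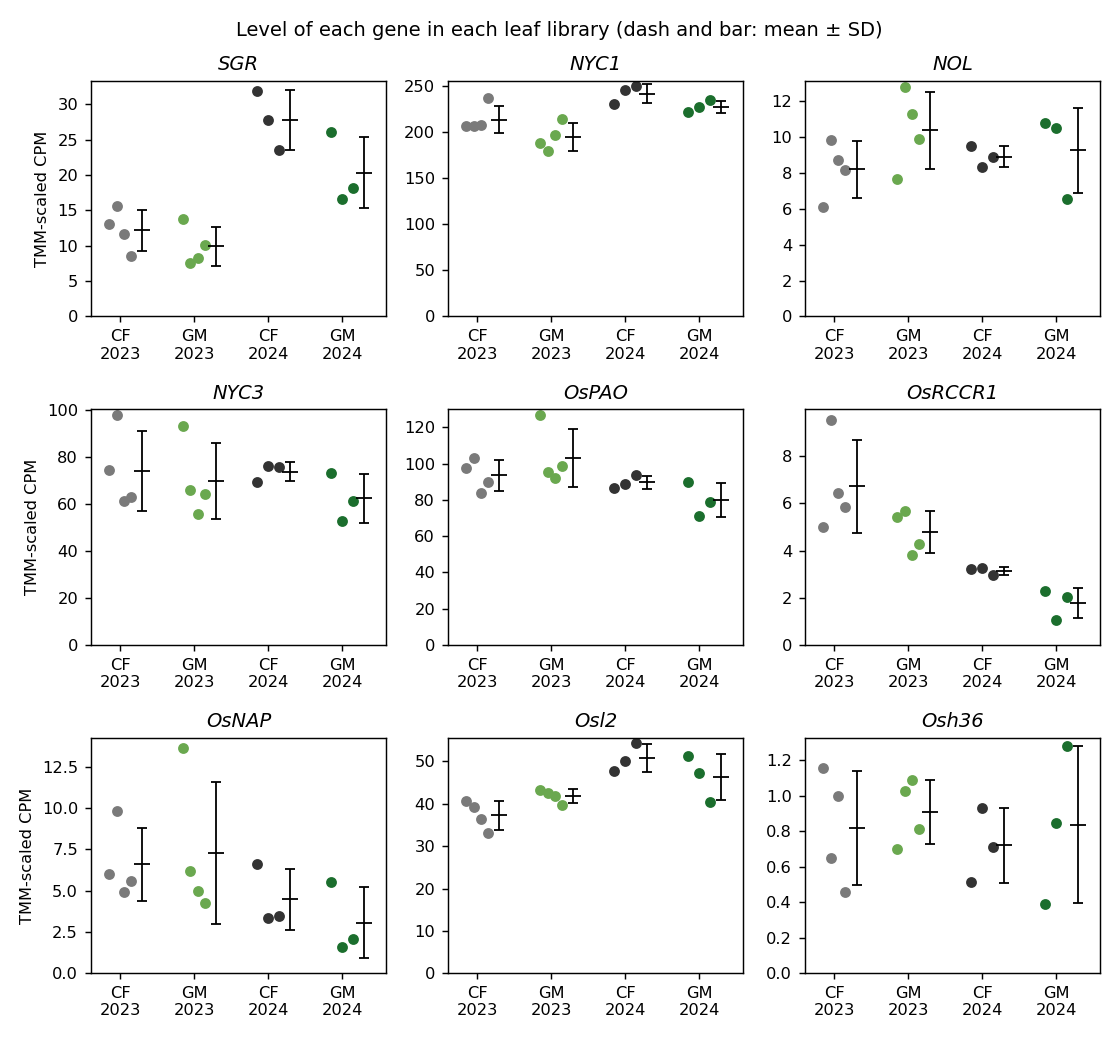
TMM-scaled CPM (vertical axes, from 0) of the 9 loci with reads in each of the 14 leaf libraries, one dot per leaf, by treatment and year, with the mean ± SD of each group beside the dots. SGR sits at 7.61 to 15.6 CPM in 2023 and at 16.6 to 31.9 CPM in 2024, and OsRCCR1 is lowest in the GM leaves of 2024.

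NYC1 and NOL, the chlorophyll b reductases, open the route. NYC1 stood at 207, 207, 208 and 237 CPM in the CF leaves of 2023 and at 189, 180, 197 and 215 CPM in the GM leaves. Of the 4 GM leaves, 3 lay below every CF leaf and the other lay inside the CF range. In 2024 it was at 231, 246 and 250 CPM in CF and at 222, 228 and 235 CPM in GM leaves, which overlapped. The changes of NYC1 were -0.14 ± 0.10 in 2023 (adjusted p = 0.543) and -0.09 ± 0.09 in 2024 (adjusted p = 0.631). Their 95% intervals, -0.35 to 0.07 and -0.28 to 0.09, reach no further than 0.35 from 0. Over both years the change of NYC1 was -0.11 ± 0.07 (adjusted p = 0.365). With library totals that value was -0.31 and was called lower (adjusted p = 0.00685). Its coefficient of variation within groups was 2.82% to 7.75%.

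NOL, which works with NYC1, was at 6.09, 9.83, 8.74 and 8.15 CPM in the CF leaves of 2023 and at 7.69, 12.8, 11.3 and 9.89 CPM in the GM leaves. Here 3 GM leaves were above every CF leaf and 1 was inside the CF range. In 2024 the CF leaves, at 9.49, 8.34 and 8.92 CPM, lay inside the spread of the GM leaves at 10.8, 10.5 and 6.53 CPM. Its change was 0.33 ± 0.19 in 2023 (adjusted p = 0.428) and 0.04 ± 0.19 in 2024 (adjusted p = 0.943), and neither was called. The 2024 value turned to -0.16 with library totals.

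SGR, the magnesium dechelatase, sets chlorophyll a on the path to breakdown. Its levels in 2023 were 13.0, 15.6, 11.7 and 8.61 CPM in CF and 13.8, 7.61, 8.27 and 10.1 CPM in GM leaves, with wide overlap. In 2024 they were 31.9, 27.8 and 23.5 CPM in CF and 26.0, 16.6 and 18.2 CPM in GM leaves. Here GM libraries 2 and 3 lay below every CF leaf, and GM library 1 lay among them. The changes were -0.30 ± 0.21 in 2023 (adjusted p = 0.539), -0.45 ± 0.17 in 2024 (adjusted p = 0.215) and -0.37 ± 0.15 over both years (adjusted p = 0.167). Without GM library 1 of 2024 the change of that year was -0.67 with an adjusted p of 0.0091. Over both years SGR was called lower without GM library 1 of 2023 (-0.47, adjusted p = 0.0369) and with library totals (-0.56, adjusted p = 0.0424).

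NYC3 was at 74.6, 98.1, 61.2 and 63.1 CPM in CF and at 93.2, 66.0, 55.7 and 64.3 CPM in GM leaves of 2023, each treatment having 1 leaf far above the rest. In 2024 it was at 69.4, 76.5 and 75.9 CPM in CF and at 73.2, 52.7 and 61.5 CPM in GM leaves, where GM libraries 2 and 3 were again the low ones. Its changes were -0.09 ± 0.18 (adjusted p = 0.855) and -0.25 ± 0.11 (adjusted p = 0.291). Without GM library 1 of 2024 the second became -0.38 with an adjusted p of 0.027.

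OsPAO, listed in the deposited tables as EAS1, was at 97.4, 103, 83.6 and 90.1 CPM in CF and at 127, 95.3, 92.0 and 98.6 CPM in GM leaves of 2023. GM library 1 was the highest leaf of that year and the other 3 GM leaves lay inside the CF range. The order was the other way in 2024, with 86.5, 88.5 and 93.8 CPM in CF and 89.6, 71.3 and 78.8 CPM in GM leaves, still overlapping. Changes of 0.13 ± 0.11 in 2023 (adjusted p = 0.619) and -0.17 ± 0.10 in 2024 (adjusted p = 0.405) were not called.

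OsRCCR1 was called when both years were averaged. It had 10 to 103 reads per library, so its levels are less precise than those of NYC1, with 1747 to 5250 reads. In 2023 it was at 5.02, 9.56, 6.43 and 5.86 CPM in CF and at 5.44, 5.66, 3.82 and 4.28 CPM in GM leaves, where 2 GM leaves were below every CF leaf. In 2024 it was at 3.24, 3.27 and 2.96 CPM in CF and at 2.27, 1.06 and 2.03 CPM in GM leaves. The treatments did not overlap in 2024, and OsRCCR1 was the only one of the 9 loci tested that year for which this held. The changes were -0.49 ± 0.23 in 2023 (adjusted p = 0.316) and -0.78 ± 0.28 in 2024 (adjusted p = 0.163). Over both years it fell by 0.63 ± 0.18 on the log2 scale (1.54-fold lower, adjusted p = 0.039). That call held in 5 of the 14 fits that each left out 1 library. It was lost without CF library 2 or 3 of 2023, GM library 3 or 4 of 2023, any CF library of 2024, or GM library 2 or 3 of 2024, and adjusted p over the 14 fits ran from 0.0304 to 0.112 with changes of -0.52 or beyond.

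**Figure D2:**
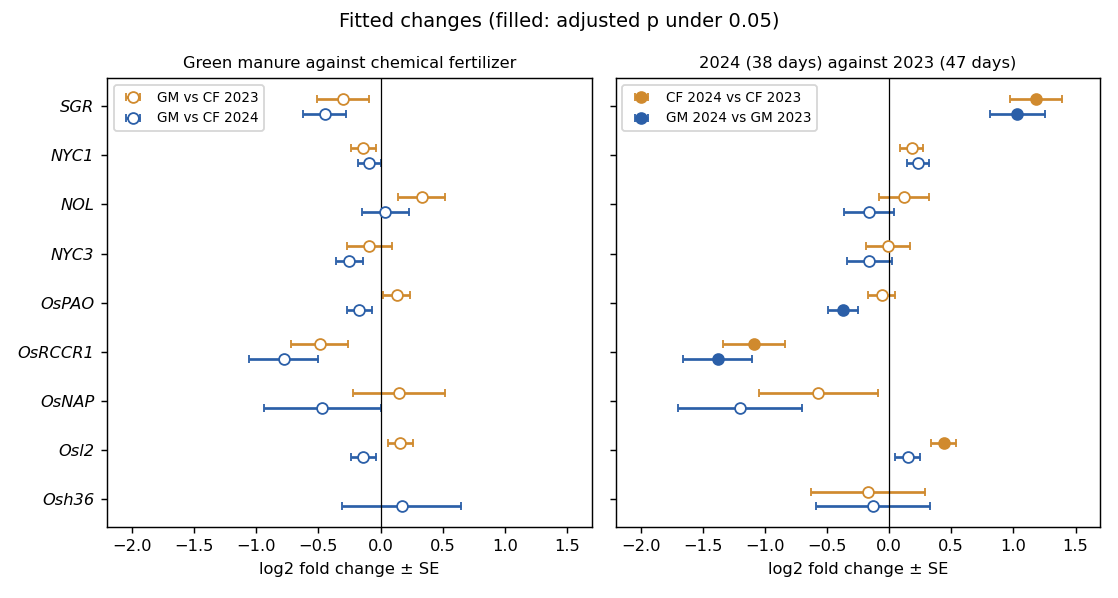
Log2 fold change ± SE (horizontal axes) of each locus, for GM against CF in each year (left) and for 2024 against 2023 in each treatment (right), with filled points where the adjusted p was under 0.05. No point is filled on the left, while SGR (1.18 and 1.03) and OsRCCR1 (-1.09 and -1.38) are filled for both treatments on the right; Osh36 was not tested in 2023.

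OsNAP, the regulator, varied from leaf to leaf more than any breakdown gene did, with a coefficient of variation of 33.6% to 69.4% within groups. It was at 6.0, 9.83, 4.92 and 5.59 CPM in CF and at 13.6, 6.17, 5.0 and 4.28 CPM in GM leaves of 2023. In 2024 it was at 6.62, 3.34 and 3.48 CPM in CF and at 5.51, 1.59 and 2.1 CPM in GM leaves. In each group 1 leaf stood well above the others, and the treatments overlapped in both years. The changes were 0.15 ± 0.37 (95% interval -0.67 to 0.98, adjusted p = 0.891) and -0.47 ± 0.47 (-1.57 to 0.62, adjusted p = 0.682), and the 2023 value turned to -0.36 without GM library 1.

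Osl2, the GABA aminotransferase, feeds carbon of the amino acid GABA back into respiration; the deposited tables call it GABA-T and describe it as similar to a viroid RNA-binding protein. It was at 40.7, 39.3, 36.3 and 33.0 CPM in CF and at 43.2, 42.5, 41.7 and 39.7 CPM in GM leaves of 2023. Of the 4 GM leaves, 3 were above every CF leaf. In 2024 it was at 47.8, 50 and 54.4 CPM in CF and at 51.2, 47.1 and 40.5 CPM in GM leaves, and the treatments overlapped. Its changes, 0.16 ± 0.10 (adjusted p = 0.48) and -0.14 ± 0.10 (adjusted p = 0.537), were not called, and the first became -0.03 with library totals.

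Osl85, the isocitrate lyase of the glyoxylate cycle, had no read in any of the 14 libraries. A count of 0 among 179547731 reads allows a level of up to 0.0167 CPM, taking 3 reads over all libraries; this covers counting error only. Osh36, described as similar to an alanine:glyoxylate aminotransferase, had 5 to 17 reads per library. Its group means were 0.819 ± 0.323 CPM (CF, SD, n = 4) and 0.909 ± 0.182 CPM (GM, n = 4) in 2023, and 0.721 ± 0.21 CPM (CF, n = 3) and 0.838 ± 0.444 CPM (GM, n = 3) in 2024. It did not pass the filter on low counts in 2023. Its change in 2024 was 0.17 ± 0.48 (95% interval -0.87 to 1.21), too wide to tell a rise from a fall, and with library totals it was -0.04.

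Between the 2 sampling stages, SGR was higher and OsRCCR1 lower in 2024 in both treatments. In CF leaves 2 of 9 loci were called higher and 1 lower at 38 days in 2024 than at 47 days in 2023, where 19.5% of all genes were called higher and 20.4% lower. In GM leaves 1 of 9 was called higher and 2 lower, against 18.6% and 19.1% of all genes. Libraries of the 2 years did not overlap for 3 of 9 loci in CF leaves, against 47.9% of all genes, and for 4 of 9 in GM leaves, against 38.4%. The median change of the loci was -0.01 in CF and -0.16 in GM leaves, beside -0.05 over all genes in both.

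SGR was higher at the earlier stage of 2024. Its mean went from 12.2 ± 2.9 CPM (SD, n = 4) to 27.8 ± 4.22 CPM (n = 3) in CF leaves and from 9.93 ± 2.76 to 20.3 ± 5.03 CPM in GM leaves. Every 2024 leaf was above every 2023 leaf of its treatment. It rose by 1.18 ± 0.21 in CF (2.26-fold, adjusted p = 0.000301) and by 1.03 ± 0.22 in GM leaves (2.04-fold, adjusted p = 0.00137). With library totals the GM value was 0.56 and no longer called (adjusted p = 0.0814).

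OsRCCR1 moved the other way. Its mean was 6.72 ± 1.98 CPM in 2023 and 3.15 ± 0.173 CPM in 2024 in CF leaves, and 4.80 ± 0.892 and 1.79 ± 0.639 CPM in GM leaves. No 2024 leaf reached the lowest 2023 leaf of its treatment. It fell by 1.09 ± 0.25 on the log2 scale in CF (2.13-fold lower, adjusted p = 0.00155) and fell by 1.38 ± 0.28 in GM leaves (2.6-fold lower, adjusted p = 0.000557). SGR, early in the route, and OsRCCR1, the last listed step, thus differed between the stages in opposite directions in both treatments.

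Osl2 rose in CF leaves, from 37.3 ± 3.42 to 50.7 ± 3.35 CPM (0.44 ± 0.10, adjusted p = 0.00155) with no overlap between years, but this was -0.00 with library totals. In GM leaves its means were 41.8 ± 1.54 and 46.3 ± 5.38 CPM, with a change of 0.15 ± 0.10 that was not called (adjusted p = 0.262) and became -0.32 with library totals, which called it lower (adjusted p = 0.0365). OsPAO fell by 0.37 ± 0.12 in GM leaves, from 103 ± 15.9 to 79.9 ± 9.17 CPM (adjusted p = 0.0168). That call was lost without GM library 1 of 2023 (-0.25, adjusted p = 0.0668), GM library 2 of 2024 (-0.26, adjusted p = 0.133) or GM library 3 of 2024 (-0.32, adjusted p = 0.0814). It was also lost without GM libraries 1 and 2 of 2023 together, and with only the 2 groups compared in the fit. In CF leaves OsPAO had means of 93.6 ± 8.55 and 89.6 ± 3.81 CPM and a change of -0.06 ± 0.11, which library totals made -0.51 and called lower (adjusted p = 0.00625).

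The remaining loci were not called between the years with the main test. NYC1 was at 214 ± 15.0 and 242 ± 10.2 CPM in CF leaves of 2023 and 2024 and at 195 ± 15.1 and 228 ± 6.45 CPM in GM leaves, with changes of 0.18 ± 0.09 (adjusted p = 0.137) and 0.23 ± 0.09 (adjusted p = 0.0604). Every GM leaf of 2024 was above every GM leaf of 2023 for NYC1, and DESeq2 called NYC1 higher in GM (0.26, adjusted p = 0.00633) and in CF leaves (0.20, adjusted p = 0.0451). In GM leaves it was also called higher with DESeq2's size factors (0.26, adjusted p = 0.0311) and without GM library 4 of 2023, GM library 1 of 2024 or any CF library of 2024 (0.26 to 0.28, adjusted p 0.0344 to 0.0426), and in CF leaves without GM libraries 1 and 2 of 2023 (0.20, adjusted p = 0.0434). With library totals both values turned negative and were called lower (-0.26, adjusted p = 0.0372, in CF and -0.25, adjusted p = 0.0423, in GM). OsNAP had a change of -0.57 ± 0.48 in CF and -1.20 ± 0.50 in GM leaves (adjusted p = 0.076); without GM library 1 of 2024 the latter was -1.94 with an adjusted p of 0.0126. DESeq2 (-1.19, adjusted p = 0.0217) and library totals (-1.66, adjusted p = 0.02) also called it lower in GM leaves. NOL (0.12 ± 0.20 and -0.16 ± 0.20), NYC3 (-0.01 ± 0.18 and -0.16 ± 0.18) and Osh36 (-0.17 ± 0.46 and -0.13 ± 0.46) had changes no larger than their errors. With library totals NOL was at -0.32 in CF leaves (adjusted p = 0.179) and was called lower in GM leaves (-0.63, adjusted p = 0.0121). NYC3 was likewise at -0.45 in CF leaves (adjusted p = 0.0843) and called lower in GM leaves (-0.63, adjusted p = 0.023).

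Whether the treatment difference itself changed between the years was tested as an interaction. None of the 9 loci was called, where 0.00505% of all genes were called higher and 0.00505% lower, 1 gene each way. The lowest p among the loci was that of Osl2 (-0.30 ± 0.14, unadjusted p = 0.0522, adjusted p = 0.783), followed by OsPAO (-0.30 ± 0.16, unadjusted p = 0.0757, adjusted p = 0.798). For both, GM was above CF in 2023 and below it in 2024, and that switch was not called. The interval for OsRCCR1 was -1.05 to 0.48 and that for SGR -0.80 to 0.49, so a larger or smaller treatment difference in 2024 remains possible for either. Over all genes DESeq2 called 18 for this test. With edgeR 0 of the 9 loci had an unadjusted p under 0.05, where 1252 of 19805 genes had.

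Single leaves stood out over several loci. CF library 2 and GM library 1 of 2023 each had the highest level of the year for 3 of the 9 loci with reads. GM library 1 was highest for OsPAO, OsNAP and Osl2, and CF library 2 for SGR, NYC3 and OsRCCR1. In log2(CPM + 1), OsNAP lay 0.96 above its mean of the year in GM library 1. In 2024, GM library 2 had the lowest level for 5 of 9 loci, namely SGR, NYC3, OsPAO, OsRCCR1 and OsNAP. OsNAP lay 0.78 below the mean of the year in that library and 0.78 above it in CF library 1. On the first principal component of all genes of a year, GM library 2 of 2023 was at 60.2 and GM library 1 at 30.3, and GM library 2 of 2024 was at 48.9.

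**Figure D3:**
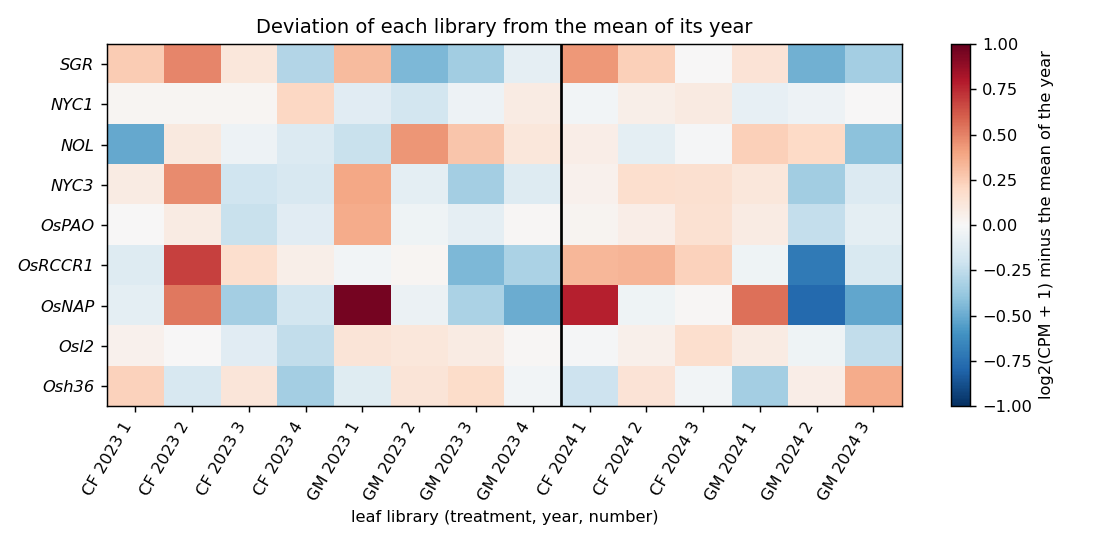
Deviation of each library from the mean of its year in log2(CPM + 1) (colour, red above and blue below) for each locus (rows) and leaf library (columns), with a line between 2023 and 2024. OsNAP has the deepest colours, 0.96 in GM library 1 of 2023 and -0.78 in GM library 2 of 2024, while NYC1 stays pale throughout.

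Further genes of chlorophyll breakdown, on a list of 4 loci, behaved in different ways. OsSGRL (Os04g0692600), a stay-green-like protein, was at 99.1 ± 13.4 CPM in CF and 141 ± 29.5 CPM in GM leaves of 2023, and at 224 ± 8.9 and 329 ± 87.9 CPM in 2024. It rose with GM over both years by 0.53 ± 0.13 (adjusted p = 0.0157), opposite in sign to SGR, and was not called within 2023 (0.51 ± 0.15, adjusted p = 0.0953) or 2024 (0.54 ± 0.17, adjusted p = 0.144). Without GM library 2 of 2024 that call was lost (0.44, adjusted p = 0.0526). Like SGR it rose from 2023 to 2024, by 1.18 ± 0.18 in CF and 1.22 ± 0.18 in GM leaves. OsHCAR (Os04g0320100), the hydroxymethyl chlorophyll a reductase that completes the conversion of chlorophyll b, differed by -0.10 ± 0.07 between treatments. It rose by 0.27 ± 0.10 and 0.33 ± 0.10 between the years in CF and GM leaves, turning to -0.17 and -0.14 with library totals. The CF call was lost when CF library 1, 2 or 3 of 2023 or any CF library of 2024 was left out, and the GM call without GM library 2 of 2024. The chlorophyllase gene CHL (Os10g0419600) differed by -0.14 ± 0.08 between treatments, and a further chlorophyllase-like locus, Os02g0286700, had no reads.

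Most genes of chlorophyll synthesis were higher in GM leaves. Over both years 9 of 12 tested were called higher in GM leaves and 1 lower, with a median of 0.59. Of the 6 breakdown loci 0 were called higher and 1 lower, and of all genes 5.11% higher and 3.22% lower. The difference between the lists was not tested. The largest rise was that of OsPORA, a light-dependent protochlorophyllide reductase, at 2.22 ± 0.28. OsCHLH, the large subunit of magnesium chelatase, rose by 0.85 ± 0.12 (adjusted p = 0.00024), OsPORB, the second reductase, by 0.78 ± 0.12 (adjusted p = 0.000592) and OsHEMA1, glutamyl-tRNA reductase, by 0.70 ± 0.10 (adjusted p = 0.000319). The gene called lower was OsCHLG, chlorophyll synthase, at -0.30 ± 0.09. Within 2023, 2 of 12 were called higher (OsPORA at 2.02 ± 0.36 and OsCHLH at 0.60 ± 0.15, median 0.39), against 1.63% of all genes. The count was 0 to 5 when 1 library was left out. Within 2024, 9 of 12 were called higher (median 0.80), against 1.89% of all genes. Among the 9 were OsGSA (0.84 ± 0.12), OsCHLD (0.77 ± 0.13) and OsHEMA1 (0.95 ± 0.15). That count was 2, 3 and 4 without CF library 1, 2 and 3 of 2024 and 5 without GM library 3. The count over both years was 9 higher, with 0 or 1 lower, in each of the 14 fits without 1 library.

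**Figure D4:**
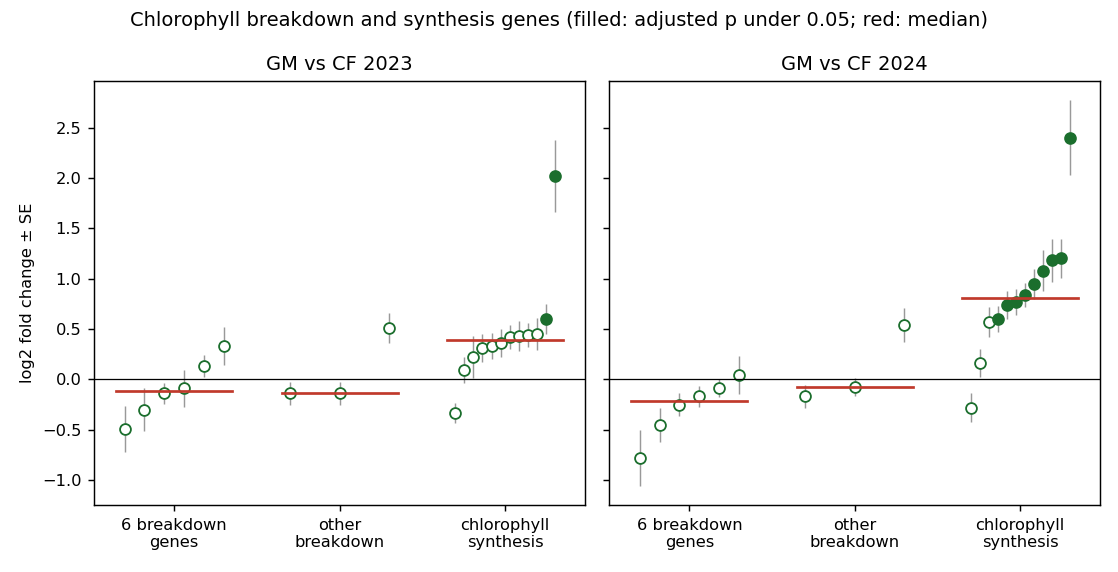
Log2 fold change ± SE (vertical axis) of GM against CF in 2023 (left) and 2024 (right) for the 6 breakdown loci, 3 further breakdown genes and 12 genes of chlorophyll synthesis, one point per gene, filled where the adjusted p was under 0.05, with a red line at each median. No breakdown gene is filled, and the synthesis genes have medians of 0.39 and 0.80, with 2 and 9 filled points.

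Other regulators of senescence did not move as one. Of 6 loci listed, 3 were tested. OsNAC2, a NAC factor known in rice to promote senescence, rose with GM in 2023 by 0.97 ± 0.24 (adjusted p = 0.044) and was at 0.09 ± 0.35 in 2024. OsPHYB, the photoreceptor phytochrome B, was at 0.21 ± 0.12 in 2023, rose with GM in 2024 by 0.57 ± 0.12 (adjusted p = 0.0259) and rose over both years by 0.40 ± 0.09 (adjusted p = 0.00974). ONAC106, a NAC factor that holds senescence back, differed by 0.21 ± 0.29. The OsNAC2 call held in 1 of 8 fits that left out 1 library of 2023 (adjusted p 0.0255 to 0.135), and the 2024 call of OsPHYB in 1 of 6 (0.000839 to 0.118). Over both years OsPHYB was called in each of the 14 such fits, but not with library totals (0.19, adjusted p = 0.134). Neither gene was called in the interaction test.

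Autophagy genes, whose products carry cell parts to the vacuole, were called in neither direction for GM against CF: 0 of 30 in 2023, 0 of 31 in 2024 and 0 of 31 over both years, with medians of 0.04, -0.03 and -0.01. Of all genes 5.11% were called higher and 3.22% lower over both years. With library totals 7 of 31 were called lower over both years, where 3784 of all 19805 genes were. Without GM library 1 of 2024 1 was called. Between the years 6 of 31 were called higher and 5 lower in CF leaves, where 19.5% and 20.4% of all genes were, and 2 higher and 6 lower in GM leaves, where 18.6% and 19.1% were. ATG18E rose by 0.87 ± 0.12 and 0.98 ± 0.12, and ATG4 by 0.58 ± 0.11 and 0.48 ± 0.11; ATG4 was at -0.00 in GM leaves with library totals. With library totals the counts became 1 higher and 18 lower in CF, and 1 higher and 20 lower in GM leaves. That scaling called 1528 of all 19805 genes higher and 9994 lower in CF leaves, and 1293 and 10384 in GM leaves.

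Among listed genes of cysteine proteinases and vacuolar processing enzymes, kinds of protease that rise in ageing leaves, those called were lower in GM than in CF leaves. Over both years 0 of 11 were called higher and 3 lower, against 5.11% and 3.22% of all genes. Changes were positive for 5 of the 11, and the median was -0.12. The subtilisin-like protease gene SUB22 is not on this list and was called higher over both years (0.59 ± 0.09). The 3 called lower were VPE2, a vacuolar processing enzyme (-0.31 ± 0.08, adjusted p = 0.0268), and the cysteine proteinase genes Os06g0582600 (-1.17 ± 0.25, adjusted p = 0.0147) and Os03g0752500 (-1.57 ± 0.31, adjusted p = 0.00502). The call of VPE2 was lost without CF library 2 of 2023, CF library 1 or 2 of 2024 or GM library 2 of 2024. That of Os06g0582600 was lost without GM libraries 1 and 2 of 2023. Within 2023 none of 10 was called. Within 2024, Os03g0752500 (-1.90 ± 0.36) and VPE2 (-0.46 ± 0.10) were called. The call of Os03g0752500 was lost without GM library 2 or 3, and that of VPE2 without any 1 library other than GM library 1. Between the years 4 of 11 proteases were called higher and 4 lower in CF leaves (median 0.52), where 19.5% and 20.4% of all genes were. In GM leaves 1 was called higher and 4 lower (median 0.12), against 18.6% and 19.1% of all genes. The median of all genes was -0.05 in both treatments. With library totals these counts were 1 higher and 4 lower, and 1 higher and 5 lower. That scaling called 1528 of all 19805 genes higher and 9994 lower in CF leaves, and 1293 and 10384 in GM leaves. Of those with the lowest adjusted p, all lower, VPE2 fell by 0.63 ± 0.12 in CF and fell by 0.91 ± 0.12 in GM leaves, and Os06g0582600 fell by 1.84 ± 0.34 and fell by 2.25 ± 0.38. REP2, similar to a legumain-type endopeptidase, in CF leaves and the cysteine proteinase gene Os04g0477900 in GM leaves were each at -0.82 (SE 0.15 and 0.16).

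A search for senescence in gene names, symbols and descriptions gave 75 tested genes. Of these, 11 were called higher and 2 lower with GM over both years, against 5.11% and 3.22% of all genes. SUB22, a subtilisin-like protease (0.59 ± 0.09), LTS1, an enzyme of nicotinate salvage (0.43 ± 0.06), and OsCAO1, chlorophyllide a oxygenase, which makes chlorophyll b (0.52 ± 0.09), had the lowest adjusted p. OsCAO1 stands on the synthesis list too, and DOF24, which rose by 0.96 ± 0.11 between the years in both treatments, is described as a repressor of leaf senescence, so the list holds genes of both signs. The number called was 8 without CF library 2 of 2024 and 7 without GM library 2 of 2024. With library totals 5 were higher and 15 lower, where 473 of all 19805 genes were higher and 3784 lower. Within the single years 5 of 69 were called higher in 2023 and 3 of 75 in 2024, against 1.63% and 1.89% of all genes. None was called lower. Between the years 31 of 75 were called higher and 7 lower in CF leaves, where 19.5% and 20.4% of all genes were. In GM leaves 23 were called higher and 9 lower, against 18.6% and 19.1% of all genes. With library totals these counts were 7 higher and 26 lower in CF leaves, and 9 higher and 35 lower in GM leaves. That scaling called 1528 of all 19805 genes higher and 9994 lower in CF leaves, and 1293 and 10384 in GM leaves.

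Of 7 tested genes for enzymes related to Osl2, Osl85 and Osh36, 2 were called higher with GM over both years and 0 lower. Of all genes 5.11% were called higher and 3.22% lower. Os03g0338000, similar to an alanine-glyoxylate aminotransferase, was at 0.715 ± 0.302 CPM in CF and 7.87 ± 5.42 CPM in GM leaves of 2023, and at 1.1 ± 0.684 and 7.03 ± 6.05 CPM in 2024. It rose by 3.07 ± 0.55 over both years (adjusted p = 0.0051), by 3.42 ± 0.52 within 2023 (adjusted p = 0.00782), and was not called within 2024 (2.72 ± 0.87, adjusted p = 0.202). Os10g0213100, described as a GABA transaminase isozyme, rose by 0.34 ± 0.10 (adjusted p = 0.0293), beside 0.01 ± 0.07 for Osl2 itself, and its call held in 7 of 14 fits without 1 library. The 2023 call of Os03g0338000 was lost without CF library 1 (adjusted p = 0.0506). Between the years 1 of 7 was called higher and 1 lower in each treatment. Of all genes 19.5% were called higher and 20.4% lower in CF leaves, and 18.6% and 19.1% in GM leaves. The glutamate decarboxylase gene GAD1, whose product makes GABA, rose by 0.74 ± 0.10 in CF and 0.79 ± 0.10 in GM leaves; with library totals the CF value was 0.30 and not called (adjusted p = 0.0611). Os03g0171900, similar to an alanine:glyoxylate aminotransferase, fell by 1.27 ± 0.42 in CF leaves (adjusted p = 0.0344), a call lost without any 1 of CF libraries 1, 2 and 3 of 2023 or any CF library of 2024, and GDCi, described as a glutamate decarboxylase, fell by 0.62 ± 0.13 in GM leaves (adjusted p = 0.00073).

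Genes with a pattern like that of SGR and OsNAP across leaves were sought over the 14 libraries, among 18372 genes. Levels were taken in log2(CPM + 1) after subtracting the mean of each year. The loci followed here and genes with no description were not named, nor were those described as hypothetical, unknown, uncharacterised or conserved. Those named below were the most alike of the rest, so an unnamed gene may be more alike. These likenesses share libraries, treatment and depth, and are descriptions. For SGR they were Os04g0197100 (r = 0.94, rho = 0.92), the leucine-rich repeat gene Os05g0522600 (r = 0.93, rho = 0.94), the cytochrome P450 gene Os03g0594100 (r = 0.91, rho = 0.87) and the glycosyltransferase gene UGT99B3 (r = 0.90, rho = 0.88). Without the 2 libraries farthest from the median, GM library 2 of each year, these r were 0.92, 0.90, 0.88 and 0.85. For OsNAP they were the chloroplast lipoxygenase gene LOX8 (r = 0.97, rho = 0.97), the aquaporin gene PIP1;3 (r = 0.92, rho = 0.97), the ankyrin repeat gene Os11g0182500 (r = 0.92, rho = 0.92) and the metallothionein gene MTI3B (r = 0.92, rho = 0.89). Without CF library 1 of 2024 and GM library 1 of 2023 they were 0.93, 0.88, 0.92 and 0.89.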

How the data were processed

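PolyA RNA was sequenced as directional libraries, per the labels' protocols. The authors deposited raw counts of unique exon reads per locus, per the labels, on build IRGSP-1.0 per the submitters' processing notes. Which aligner and counter were used, and whether strand was, is not given in the sources used here, so reads of overlapping or antisense genes could be mixed. A further 2 deposited columns that the labels do not describe were left out. The members and lists were chosen with earlier results of these data known; 10 loci were left out of searched lists by description and 5 as inhibitors. Named genes were all 10 loci and, of each list, up to 3 called genes with the smallest adjusted p or, with none called, the nearest 1. OsCHLG and the other list genes named outside this rule were chosen after their values were seen.

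Counts were filtered with filterByExpr, TMM-scaled and tested with edgeR 4.0.16 (limma 3.58.1, R 4.3.3 with the data.table package, version 1.17.8), within each year for treatments and in 1 fit of 14 libraries for the other comparisons. The SE is the log2 fold change divided by the root of F. Alternatives were DESeq2 1.42.0, other scalings and filters, a replicate block and libraries left out. The fits were also run on simulated counts. The check on how many changed genes were recovered left out the comparison averaged over both years. No sequences or transcript lengths were used here.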

Additional observations from a re-analysis of the deposited data

Results flagged for a closer look

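Among the 9 loci with reads, 18 groups of 4 libraries were tested for a single leaf far from the other 3, and 1 stood out. NYC1, the chlorophyll b reductase, was at 237 CPM in CF library 4 of 2023, while the other 3 CF leaves of that year were at 207, 207 and 208 CPM. The gap to the nearest leaf made up 0.964 of the range of the group. Chance sets apart about 1 in 20 such groups.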

How the results depend on the processing

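Of the tests between treatments, the absence of calls among these loci held with edgeR and DESeq2 in 2023 under the alternatives tried, while the counts over all genes were less stable. Of the libraries, 5 of 14 correlated best with their own number in the other treatment, which does not settle whether the replicate numbers pair leaves. Correlations between leaves of the same number, as deviations from group means, were -0.113 to 0.138 in 2023 and 0.261, 0.187 and -0.008 in 2024. With the replicate block, 1616 genes and 1 of the loci, SGR (-0.47, adjusted p = 0.0134), were called for GM against CF in 2024. It also gave 5 loci between the years in GM leaves, and 1 gene in the interaction. DESeq2 called 810 genes in 2023, 18 in the interaction and 5 loci between the years in GM leaves. All 14 libraries in 1 fit gave 723 genes in 2023. Requiring a change of at least 1 in either direction (log2) left 152, 195, 286, 2425 and 2270 genes for GM against CF in 2023, in 2024 and over both years and for the years in CF and in GM leaves, and 0 loci over both years. No filter gave 975 genes in 2024 and 4 in the interaction. Without GM libraries 1 and 2 of 2023 there were 788 genes in 2023 and 12 in the interaction. Library totals gave 1188 genes in 2024, 4257 genes and 3 loci over both years, 11677 genes and 7 loci between the years in GM leaves, and 0 genes in the interaction.

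Leaving out 1 library at a time gave 149 to 666 called genes in 2023 (460 with all), 162 to 1603 in 2024 (626), 1028 to 1938 over both years (1650) and 0 to 13 in the interaction (2). It gave 0 to 2 loci in 2024, 0 to 2 over both years and 2 to 5 between the years in GM leaves; the highest of these was 5, without GM library 1 of 2024. The count over both years was lowest, 1028, without GM library 2 of 2024, and 2023 counts were 149, 180 and 150 without CF libraries 1, 2 and 3.

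Signs turned for loci near 0 and, between the years with library totals, also for genes called with the main test. In CF leaves these were Osl2 (0.44 with the main test) and OsHCAR (0.27). In GM leaves they were OsHCAR (0.33), OsPHYB (0.41) and ATG4 (0.48). With library totals, for GM against CF, OsPAO (-0.04), Osl2 (-0.03) and OsNAP (-0.02) turned in 2023, NOL (-0.16) and Osh36 (-0.04) in 2024, and NOL (-0.01), Osl2 (-0.19) and Osh36 (-0.04) over both years. Between the years NYC1 (-0.26), NOL (-0.32), Osl2 (-0.00) and OsHCAR (-0.17) turned in CF leaves, and NYC1 (-0.25), Osl2 (-0.32), OsHCAR (-0.14), OsPHYB (-0.08), OsLsi1 (-0.10) and ATG4 (-0.00) in GM leaves. NYC3 between the years in CF leaves became 0.02 with DESeq2, with its size factors and without GM libraries 1 and 2 of 2023, and 0.01 with no filter or only the 2 groups compared. Without those 2 GM libraries, OsNAP was -0.51 in 2023, Osl2 -0.01 over both years, NYC3 0.09 between the years in GM leaves, and the interaction was -0.02 for NYC1, 0.08 for NYC3, 0.05 for OsNAP, -0.03 for Osh36 and -0.21 for OsCDKB2;1.

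With 1 library left out, values for GM against CF in 2023 ran from -0.27 to 0.07 for NYC3 and from -0.36 to 0.41 for OsNAP. In 2024 they ran from -0.10 to 0.25 for NOL and from -0.33 to 0.57 for Osh36. Over both years they ran from -0.54 to 0.03 for OsNAP, -0.07 to 0.02 for OsPAO, -0.08 to 0.35 for Osh36 and -0.03 to 0.06 for Osl2. Between the years in CF leaves they ran from -0.00 to 0.22 for NOL, -0.09 to 0.16 for NYC3 and -0.37 to 0.05 for Osh36, and in GM leaves from -0.29 to 0.07 for NOL, -0.25 to 0.02 for NYC3 and -0.58 to 0.29 for Osh36. Interaction values ran from -0.00 to 0.10 for NYC1, -0.32 to 0.02 for NYC3, -0.43 to 0.44 for Osh36 and -0.37 to 0.06 for SGR. The causes were not tested. OsRCCR1, OsNAP and Osh36 had the fewest reads among the loci detected (723, 956 and 141 over all libraries), and the part of depth was not tested.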
